A study of Mus musculus with 6 samples.

Results

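E-cadherin, N-cadherin and 8 genes tied to the exchange of one for the other were followed in mouse epiblast stem cells (EpiSCs) during neural plate culture. The 10 genes were Cdh1, Cdh2, Epcam, Ncam1, Zeb1, Zeb2, Snai2, Grhl2, Grhl3 and Esrp1. Their members on the array were all probes whose RefSeq accession maps to 1 of those symbols, which gave 16 probes of 55646 with a value on every array, and 10 of 20270 named genes. EpiSCs are pluripotent cells of the post-implantation epiblast, here of strain 129/Sv. Cells were either held 1 day (NPC1) or 2 days (NPC2) in a neural plate condition or kept in the epiblastic maintenance condition (EpiSC). Each group had 2 cultures, A and B, and all 6 came from the same seed culture, so p-values measure the spread between duplicate cultures, which may be largely technical. In RNA from whole cultures, fewer cells of a type and less RNA per cell cannot be told apart.

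Classical cadherins join neighbouring cells through homophilic contacts and are held to the actin skeleton by catenins. The embryonic epiblast is an epithelium that carries E-cadherin, and in the neural plate E-cadherin gives way to N-cadherin, a change known as the cadherin switch. ZEB1, ZEB2 and the SNAIL proteins bind E-box sequences and repress epithelial genes, while GRHL2, GRHL3 and ESRP1 sustain the epithelial state.

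Values are Agilent processed signals, a background-subtracted spot brightness on a linear scale. For tests, log2 signals were set against each array's 75th percentile, which lay between 343 and 374 on the 6 arrays. A probe entered the limma fit if at least 1 group had it well above background on both its arrays, which held for 33532 probes, and a change was called at an adjusted p under 0.05 (Benjamini-Hochberg over those probes). Where a gene has several tested probes, its call is that of the brightest. Of the 16 member probes 15 were tested. Signals on duplicate arrays correlated at 0.996 across probes, and arrays of different groups at 0.956 to 0.984.

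The labels were first set against known markers. Pou5f1, the core pluripotency factor, had 28600 and 32000 in EpiSC cultures, 16300 and 18600 in NPC1 cultures and 5080 and 4940 in NPC2 cultures. Sox1, an early neural plate factor, had 47.5 and 43.8 in EpiSC cultures, 300 and 312 in NPC1 cultures and 2560 and 2470 in NPC2 cultures; its other probe had a 2-day log2 change of 1.81, against 5.72. All 7 epiblast markers were above background on both EpiSC arrays. Their summed signal was 12090 to 12730 in NPC2 cultures, against 177300 in EpiSC cultures. Over both days 6 of the 7 fell, against 38.1% of all genes tested, and 1, Nanog, rose, against 26.4%. Nanog had 125 and 134 in EpiSC cultures and 238 and 239 in NPC2 cultures (log2 change 0.82, adjusted p = 0.000525). Actb changed by 0.01 on the log2 scale over the first day (adjusted p = 0.915) and by -0.20 over both days (adjusted p = 0.0395), and Gapdh by -0.06 over both days (adjusted p = 0.46).

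The exchange of the cadherins took place almost entirely on the second day. Over both days 4 members rose (Cdh2, Ncam1, Zeb1, Zeb2), 5 fell (Cdh1, Epcam, Grhl2, Grhl3, Esrp1) and Snai2 did not pass; in that comparison 64.4% of the 14768 genes tested passed, 26.4% higher and 38.1% lower. On the first day 3 rose (Ncam1, Zeb1, Zeb2), 3 fell (Epcam, Grhl2, Grhl3) and 4 did not pass, against 42.1% of all genes called, 18.0% higher and 24.1% lower. On the second day all 10 passed, 5 higher and 5 lower, against 40.1% of all genes, 17.7% higher and 22.4% lower. Neither cadherin was among those called on the first day.

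**Figure D1:**
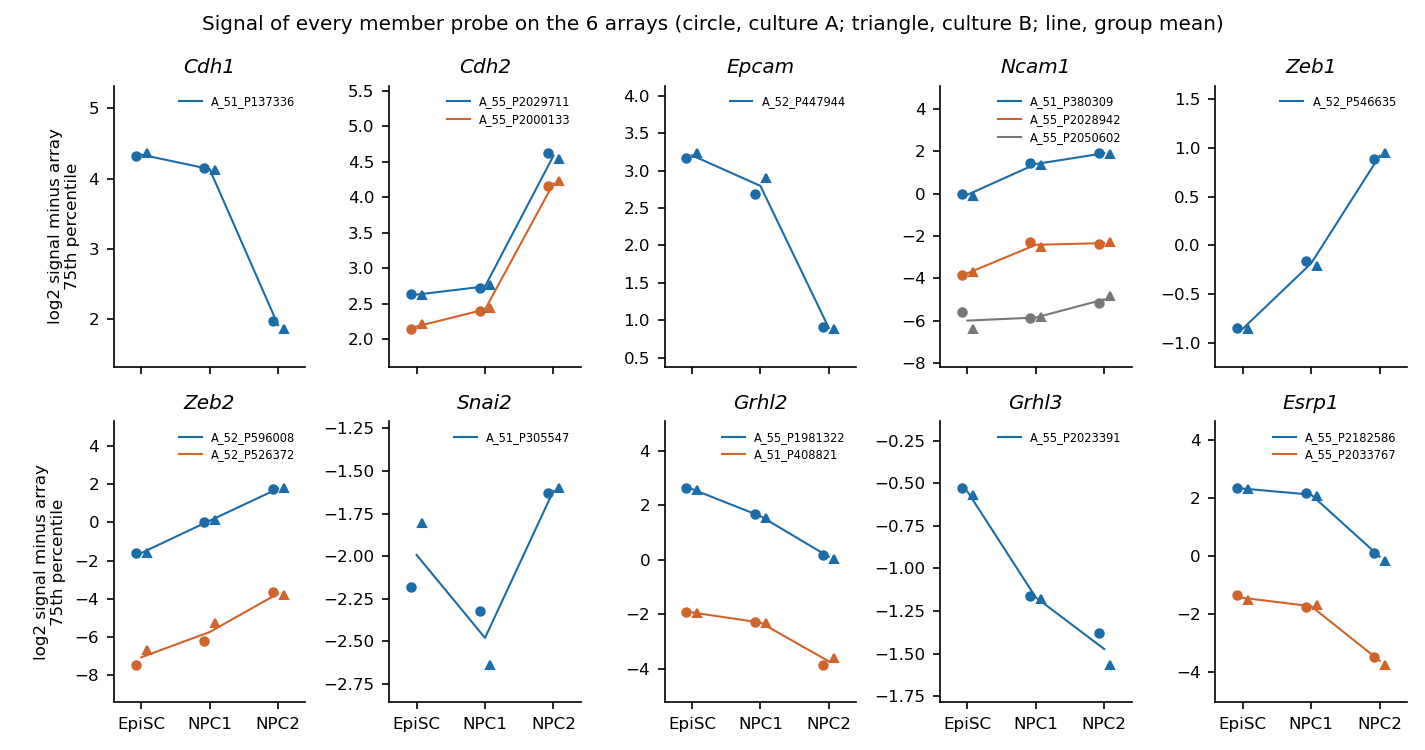
Log2 processed signal minus the array's 75th percentile for each of the 16 member probes; circles are culture A, triangles culture B, lines join group means, and the vertical scale differs between panels. Cdh1, Epcam and Esrp1 drop and Cdh2 climbs mainly between NPC1 and NPC2, while Zeb2 and Grhl2 move on both days and Ncam1 mainly on the first.

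Cdh1 encodes E-cadherin, the adhesion molecule of epithelia. Its only probe, A_51_P137336, is printed 10 times on the array and had a mean signal of 7102 and 7360 in EpiSC cultures, 6096 and 6366 in NPC1 cultures and 1469 and 1344 in NPC2 cultures. The NPC2 cultures stood far below all others, and the NPC1 cultures lay just under the EpiSC cultures without overlap. Cdh1 fell 5.38-fold in NPC2 against EpiSC cultures (log2 change -2.43 ± 0.064 SE, adjusted p = 4.88e-05) and 4.66-fold in NPC2 against NPC1 cultures (log2 change -2.22, adjusted p = 0.000221). The first day's difference was small, with a log2 change of -0.21 ± 0.064, a 95% interval of -0.37 to -0.04 and an adjusted p of 0.0675. That first-day value is close to the threshold: it passed when 1 probe per gene entered the fit (adjusted p = 0.0362) and over the 17 alternatives its adjusted p ran from 0.0081 to 0.571. By the end of the first day the gene had covered 8.5% of its 2-day log2 change.

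The repeated spots show how finely Cdh1 was measured. Within an array the 10 spots varied by 2.58% to 4.46% (coefficient of variation). Spots ran from 5618 to 6449 and from 6019 to 6784 on the NPC1 arrays, against 6709 to 7490 and 6844 to 7909 on the EpiSC arrays. The NPC2 spots, 1412 to 1522 and 1246 to 1430, were well clear of both. Spots of 1 array share 1 RNA sample, so they describe the precision of a reading and not the spread between cultures.

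Cdh2 encodes N-cadherin, the classical cadherin of neural tissue and many mesenchymal cells, and 2 probes report it. Probe A_55_P2029711 had 2210 and 2192 in EpiSC cultures, 2269 and 2478 in NPC1 cultures and 9219 and 8648 in NPC2 cultures. Probe A_55_P2000133 had 1568 and 1658, then 1816 and 1974, then 6683 and 6958 in the same order of groups. Both probes were high only in the NPC2 cultures, and Cdh2 signal was already well above background in EpiSC cultures. On the brighter probe Cdh2 rose 3.88-fold in NPC2 against EpiSC cultures (log2 change 1.96 ± 0.057, adjusted p = 5.52e-05) and 3.58-fold in NPC2 against NPC1 cultures (log2 change 1.84, adjusted p = 0.000246). The other probe gave 4.05-fold over both days (log2 change 2.02 ± 0.060). For the first day the probes gave log2 changes of 0.12 ± 0.057 (95% interval -0.03 to 0.26, adjusted p = 0.186) and 0.24 ± 0.060 (adjusted p = 0.0393), so the dimmer probe passed and the brighter one did not. The dimmer probe's first-day call was lost in 11 of 15 alternatives, every fit without 1 array among them (adjusted p up to 0.178).

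Because both cadherins were read on every array, their ratio does not depend on how arrays are scaled; this ratio was chosen after the values were seen. Relative to the mean of the EpiSC arrays, Cdh2 over Cdh1 was 1.22 and 1.28 on the NPC1 arrays and 20.6 and 21.1 on the NPC2 arrays with the brighter Cdh2 probe. With the other Cdh2 probe it was 1.34 and 1.39 on the NPC1 arrays and 20.4 and 23.2 on the NPC2 arrays. The ratio thus shifted by about the same amount in both duplicates and with either probe.

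**Figure D2:**
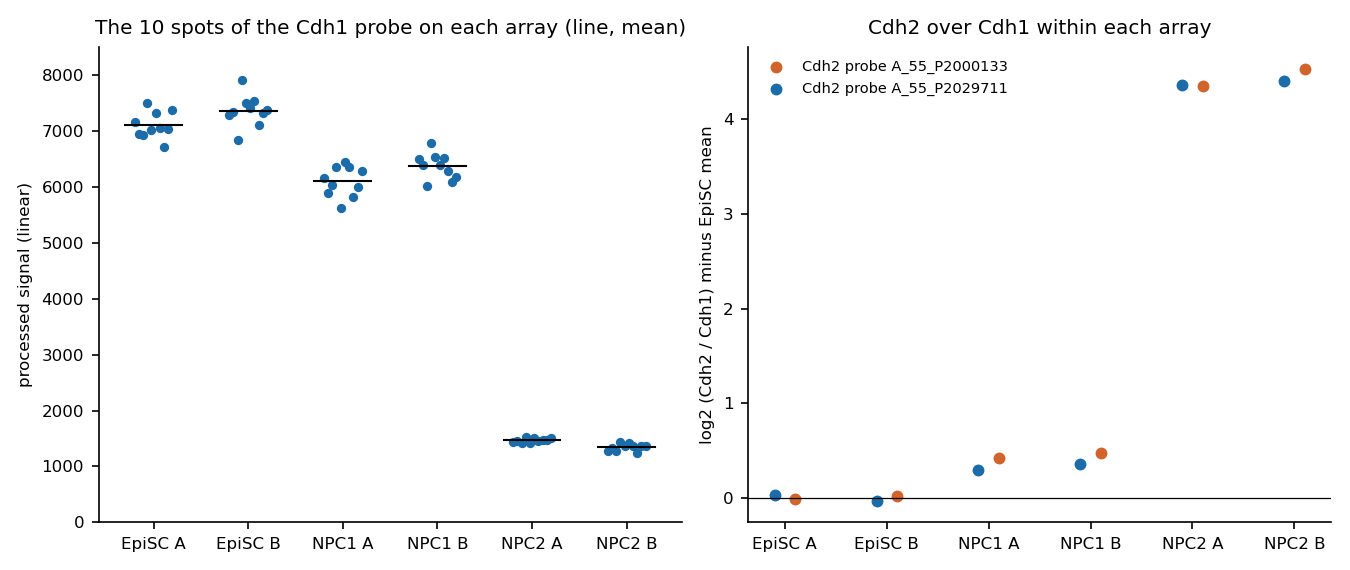
Left, the 10 processed signals of the Cdh1 probe on each array with their mean as a line; right, log2 of Cdh2 over Cdh1 within each array after subtracting the EpiSC mean, for each Cdh2 probe. Cdh1 spots centre between 6096 and 7360 on EpiSC and NPC1 arrays and at 1469 and 1344 on NPC2 arrays, and the ratio is more than 20-fold above EpiSC on both NPC2 arrays.

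Epcam encodes an epithelial surface glycoprotein found in embryonic stem cells, the epiblast and many epithelia. Its probe had 3204 and 3360 in EpiSC cultures, 2220 and 2722 in NPC1 cultures and 703 and 681.8 in NPC2 cultures, without overlap between groups. Epcam fell 4.96-fold over both days (log2 change -2.31 ± 0.086, adjusted p = 9.59e-05) and by 1.90 on the log2 scale on the second day (adjusted p = 0.000412). The call of its first-day fall of 0.41 on the log2 scale (adjusted p = 0.0245) was lost when any 1 array other than NPC1 culture B was left out. Without either NPC2 array the log2 change stayed at -0.41, with an SE of 0.097 against 0.086. With only the 2 groups fitted, and without the filter on dim probes, the call was lost too (adjusted p = 0.0544 and 0.0756). The promoters of Epcam and Grhl3, both of which fell, are shown because each holds the E-box bound by ZEB and SNAIL proteins. They are the 250 bases before the gene's start in RefSeq on GRCm38.p6, read along the gene's strand at chr17:87635729-87635978 (plus) and chr4:135573633-135573882 (minus), with CACCTG or its complement CAGGTG in capitals.
Epcam: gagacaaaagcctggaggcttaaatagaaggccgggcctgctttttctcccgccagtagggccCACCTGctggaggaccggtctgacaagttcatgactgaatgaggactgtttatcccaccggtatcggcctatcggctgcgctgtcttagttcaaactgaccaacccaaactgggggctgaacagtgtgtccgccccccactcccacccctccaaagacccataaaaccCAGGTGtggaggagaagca
Grhl3: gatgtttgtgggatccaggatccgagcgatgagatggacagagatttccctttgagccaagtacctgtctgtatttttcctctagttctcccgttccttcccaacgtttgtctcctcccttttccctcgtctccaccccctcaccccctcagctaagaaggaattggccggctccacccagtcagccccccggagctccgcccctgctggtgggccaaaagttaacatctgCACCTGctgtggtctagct
In Epcam the motif begins 187 and 19 bases before the start, and in Grhl3 at 19 bases. Of 32851 RefSeq promoter windows of that length, 17.2% hold the motif on either strand, so a match is common and describes only the letters. The GRHL motif AACCNGTT or AACNGGTT, which does not overlap it and is in 1.79% of windows, was not in these promoters. Of the 10 members 3 have promoter entries here; the 4 entries of Zeb2 hold neither motif.

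Ncam1 encodes a neural adhesion molecule of the immunoglobulin family, and its rise lay mainly on the first day. Probe A_51_P380309 had 355.5 and 333 in EpiSC cultures, 951.4 and 926 in NPC1 cultures and 1423 and 1383 in NPC2 cultures. Probe A_55_P2028942 was dimmer, with 25.15 and 27.44 in EpiSC cultures, 70.05 and 62.71 in NPC1 cultures and 71.66 and 76.14 in NPC2 cultures. Both separated NPC1 from EpiSC cultures clearly; after scaling to the array's 75th percentile, only the brighter separated NPC2 from NPC1. On that probe Ncam1 rose 2.74-fold on the first day (log2 change 1.46 ± 0.072, adjusted p = 0.000769) and by a log2 change of 0.51 on the second (adjusted p = 0.00806), reaching 3.90-fold over both days (adjusted p = 9.39e-05). The first day thus held 74.2% of its 2-day log2 change. On the dimmer probe the second day's log2 change was 0.08 (adjusted p = 0.599). The third probe, A_55_P2050602, read 4.205 to 12.91 over the 6 arrays, was well above background on 1 of them, and was not tested.

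Among the repressors, Zeb2 rose most. This zinc-finger homeobox factor is expressed in the neural plate and neural crest. Probe A_52_P596008 had 116.3 and 118.5 in EpiSC cultures, 351.5 and 404.8 in NPC1 cultures and 1264 and 1280 in NPC2 cultures, a climb with no overlap at either step. Zeb2 rose 3.23-fold on the first day (log2 change 1.69 ± 0.063, adjusted p = 0.00043) and 3.21-fold on the second (log2 change 1.68, adjusted p = 0.000287), and 10.4-fold over both (adjusted p = 2.93e-05). Its second probe, A_52_P526372, was not well above background in EpiSC cultures (2.051 and 3.477), was so on 1 of 2 NPC1 arrays (4.65 and 9.474), and read 30.4 and 26.27 in NPC2 cultures. With the EpiSC side at the lowest signal that stands well above background on those arrays, NPC2 cultures were at least 2.92-fold higher. In the limma fit, on signals as read, the probe's log2 change was 3.34 (adjusted p = 0.00238), and 0.52 to 3.72 over the alternatives. Its first-day log2 change of 1.32 did not pass (adjusted p = 0.0643).

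Zeb1, the paralogue of Zeb2, rose at both steps as well. Its probe had 196.7 and 196.2 in EpiSC cultures, 306.5 and 315.8 in NPC1 cultures and 692.6 and 714.5 in NPC2 cultures. Zeb1 rose 1.59-fold on the first day (log2 change 0.67 ± 0.054, adjusted p = 0.00219) and by a log2 change of 1.10 on the second (adjusted p = 0.000484), in all 3.43-fold (adjusted p = 6.12e-05). Zeb1 and the brighter Zeb2 probe were therefore called on the first day, when Cdh1, the brighter Cdh2 probe and the dimmer Zeb2 probe were not.

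Snai2 encodes SLUG, a repressor known from neural crest and mesoderm. Its probe had 78.47 and 102 in EpiSC cultures, 68.6 and 58.77 in NPC1 cultures and 120.8 and 122 in NPC2 cultures, so it was lowest at NPC1. The first day's log2 change of -0.49 ± 0.17 did not pass (adjusted p = 0.0861), nor did that over both days of 0.38 (95% interval -0.06 to 0.81, adjusted p = 0.119). Snai2 rose 1.82-fold on the second day (log2 change 0.86, adjusted p = 0.0194). That call was lost without NPC1 culture B, NPC2 culture A or NPC2 culture B (log2 changes 0.71, 0.88 and 0.85). It was also lost without the filter on dim probes (adjusted p = 0.0534).

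Grhl2, a grainyhead-like factor that activates epithelial junction genes and Cdh1, was already falling on the first day. Probe A_55_P1981322 had 2181 and 2107 in EpiSC cultures, 1096 and 1046 in NPC1 cultures and 425.5 and 376.3 in NPC2 cultures. Probe A_51_P408821 had 93.57 and 92.6 in EpiSC cultures, 70.59 and 72.24 in NPC1 cultures and 25.96 and 30.23 in NPC2 cultures. Both fell at each step without overlap, but they differed in the size of the first. On the brighter probe Grhl2 fell 1.99-fold on the first day (log2 change -0.99 ± 0.090, adjusted p = 0.00289), on the dimmer by 0.37 on the log2 scale (adjusted p = 0.0377). The dimmer probe's first-day call was lost in 7 of 15 alternatives, among them the fits without either EpiSC or either NPC1 array (adjusted p up to 0.135). Over both days the falls were 5.60-fold (log2 change -2.49, adjusted p = 9.11e-05) and 1.80 on the log2 scale (adjusted p = 0.000208). The first day held 40.0% of the 2-day log2 change on one probe and 20.8% on the other.

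Grhl3, a related factor of surface ectoderm and skin, changed least among the members that fell over both days. Its probe had 246.2 and 240.8 in EpiSC cultures, 153.4 and 161.2 in NPC1 cultures and 143.5 and 125.3 in NPC2 cultures. It fell 1.54-fold on the first day (log2 change -0.62 ± 0.078, adjusted p = 0.00624) and 1.90-fold over both (log2 change -0.92, adjusted p = 0.000814). The call of its second-day fall of 0.30 on the log2 scale (adjusted p = 0.0434) was lost without any 1 array other than NPC2 culture A. Without either EpiSC array the log2 change stayed at -0.30, as it did with only the 2 groups fitted (adjusted p = 0.0852). The call was also lost in the value table and without the filter on dim probes (adjusted p = 0.12 and 0.123).

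Esrp1 encodes an RNA-binding protein that directs epithelial splicing, and it followed Cdh1 closely. Probe A_55_P2182586 had 1809 and 1791 in EpiSC cultures, 1565 and 1529 in NPC1 cultures and 409.4 and 333.7 in NPC2 cultures. Probe A_55_P2033767 had 139.9 and 124.8, then 101.5 and 113.5, then 33.82 and 27.89 in the same order of groups. On both probes the NPC2 cultures stood apart and the first step was small. On the brighter probe Esrp1 fell 5.09-fold over both days (log2 change -2.35 ± 0.11, adjusted p = 0.000171) and by 2.14 on the log2 scale on the second (adjusted p = 0.00055). The first day's log2 change of -0.21 did not pass (95% interval -0.50 to 0.08, adjusted p = 0.216), nor did the dimmer probe's of -0.29 (adjusted p = 0.122).

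**Figure D3:**
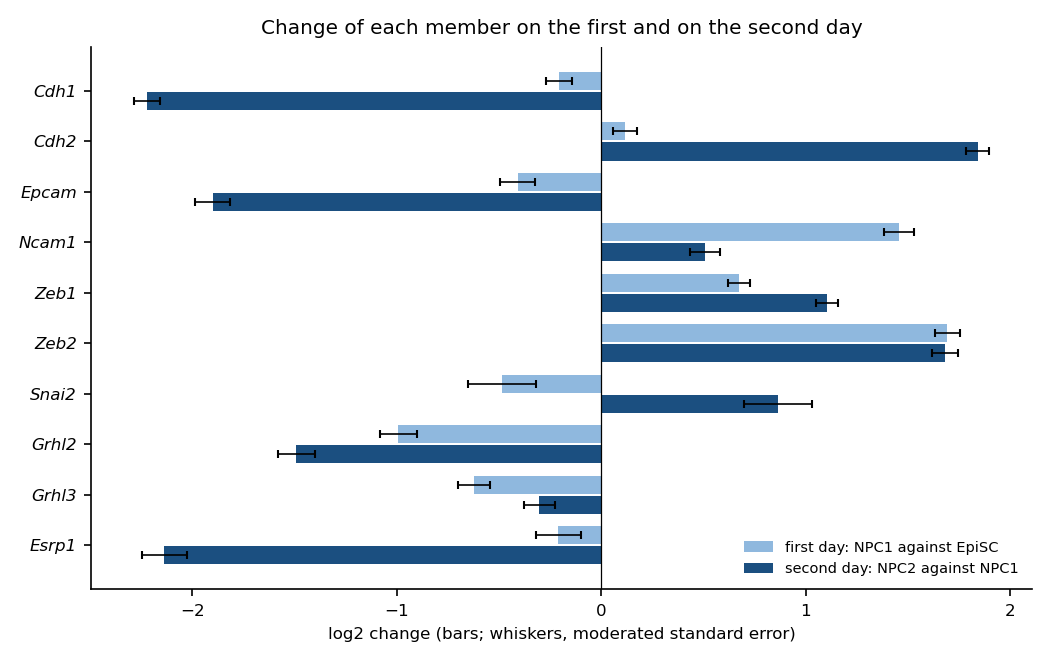
Log2 change of each member's representative probe on the first day (NPC1 against EpiSC, light bars) and the second day (NPC2 against NPC1, dark bars); whiskers are moderated standard errors. Cdh1, Cdh2, Epcam and Esrp1 have dark bars of -2.22, 1.84, -1.90 and -2.14 and light bars of -0.21, 0.12, -0.41 and -0.21, Zeb2 has bars of 1.69 and 1.68, and Ncam1 has its longer bar on the first day.

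Whether a member moved by a different amount on the 2 days was tested as the second day's log2 change minus the first's. The 2 changes share the NPC1 arrays, so an error there enters both with opposite sign. The difference passed for 7 of 10 members, against 20.4% of all genes. It was higher for 3 of them (Cdh2, Zeb1 and Snai2) and lower for 4 (Cdh1, Epcam, Ncam1 and Esrp1), against 9.05% and 11.4% of all genes. It was largest for Cdh1, at -2.01 ± 0.11 (adjusted p = 0.00207), and smallest for Zeb2, at -0.01 ± 0.11 with a 95% interval of -0.30 to 0.27 (adjusted p = 0.959). Grhl2 on its brighter probe (-0.50, adjusted p = 0.106) and Grhl3 (0.32, adjusted p = 0.194) did not pass. The dimmer Grhl2 probe did pass, at -1.05 (adjusted p = 0.0192). Grhl2 also passed as the mean of its probes (-0.77, adjusted p = 0.00632) and with an intensity trend (-0.50, adjusted p = 0.0162).

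Genes with the course most like each cadherin were sought by the root mean square difference in log2 signal over the 6 arrays, after subtracting each probe's EpiSC mean, among 13541 genes above background on all arrays. Nearest to Cdh1 were Chrnb1, an acetylcholine receptor subunit (0.0548), Prickle1, a planar cell polarity gene (0.0697), Esrp1 (0.0743) and Gch1, which makes the first step of tetrahydrobiopterin synthesis (0.0822). Epcam stood at rank 18 by the same measure, Grhl2 at 190 and Grhl3 at 1172. Nearest to Cdh2 were Tdrd7, a tudor domain gene (0.0427), St3gal6, a sialyltransferase (0.0762), Efna5, which encodes ephrin-A5 (0.0888), and Fbln1, an extracellular matrix gene (0.0903). Zeb1 stood at rank 83 for likeness to Cdh2 and Ncam1 at 1453. These ranks describe 6 arrays in 3 groups and carry no test.

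Genes of epithelial junctions fell widely, and mostly on the second day. Of 24 epithelial junction and GRHL2-linked genes, 7 fell and 2 rose on the first day, and 22 fell and 0 rose on the second, when 22.4% of all genes fell. Over both days 21 fell and 1 rose, with a median log2 change of -1.83 against -0.10 for all genes. The second day's change was lower than the first's in 22 of the 24, against 11.4% of all genes. The first-day count that fell ran from 3 (without EpiSC culture B; 4 without culture A) to 12 (with an intensity trend in eBayes) over the alternatives, and the second-day count was 21 or 22 in every one run.

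Among its named genes were a claudin and a keratin that fell steeply. Cldn6, an early epithelial tight junction claudin, had 181 and 151 in NPC2 cultures, against 2060 and 2140 in EpiSC cultures (13.3-fold lower, adjusted p = 0.000101). Krt19, a simple-epithelium keratin, had 1670 and 1420 in NPC2 cultures, against 13300 and 14500 in EpiSC cultures (9.48-fold lower). Cldn3, another claudin, went the other way: it read 655 and 661 in EpiSC cultures, 1650 and 1740 in NPC1 cultures and 1010 and 796 in NPC2 cultures. The call of its 2-day rise (log2 change 0.38, adjusted p = 0.0469) was lost without any 1 array other than NPC2 culture B. Without either NPC1 array the log2 change stayed at 0.38, as it did with only the 2 groups fitted (adjusted p = 0.0845). Median scaling, no filter on dim probes and the replicate block lost it too (adjusted p = 0.0711, 0.11 and 0.0587).

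Of 10 other epithelial regulators 8 fell and 0 rose over both days, when 38.1% of all genes fell, with a median log2 change of -1.53 against -0.10. On the first day 5 fell and on the second 7, against 24.1% and 22.4% of all genes, and the second day's change was lower than the first's in 2. Rbm47, an RNA-binding protein linked to epithelial splicing, fell 11.9-fold (log2 change -3.57 ± 0.098, adjusted p = 4.99e-05). Esrp2, the paralogue of Esrp1, fell 10.3-fold (log2 change -3.36 ± 0.091) and had a first-day log2 change of -1.44 (adjusted p = 0.00126). Ovol1, a zinc-finger factor that opposes ZEB genes in epithelia, was well above background on 0 of 2 NPC2 arrays. It was at least 6.33-fold lower there than in EpiSC cultures, and its log2 change ran from -4.75 to -0.97 over the alternatives.

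**Figure D4:**
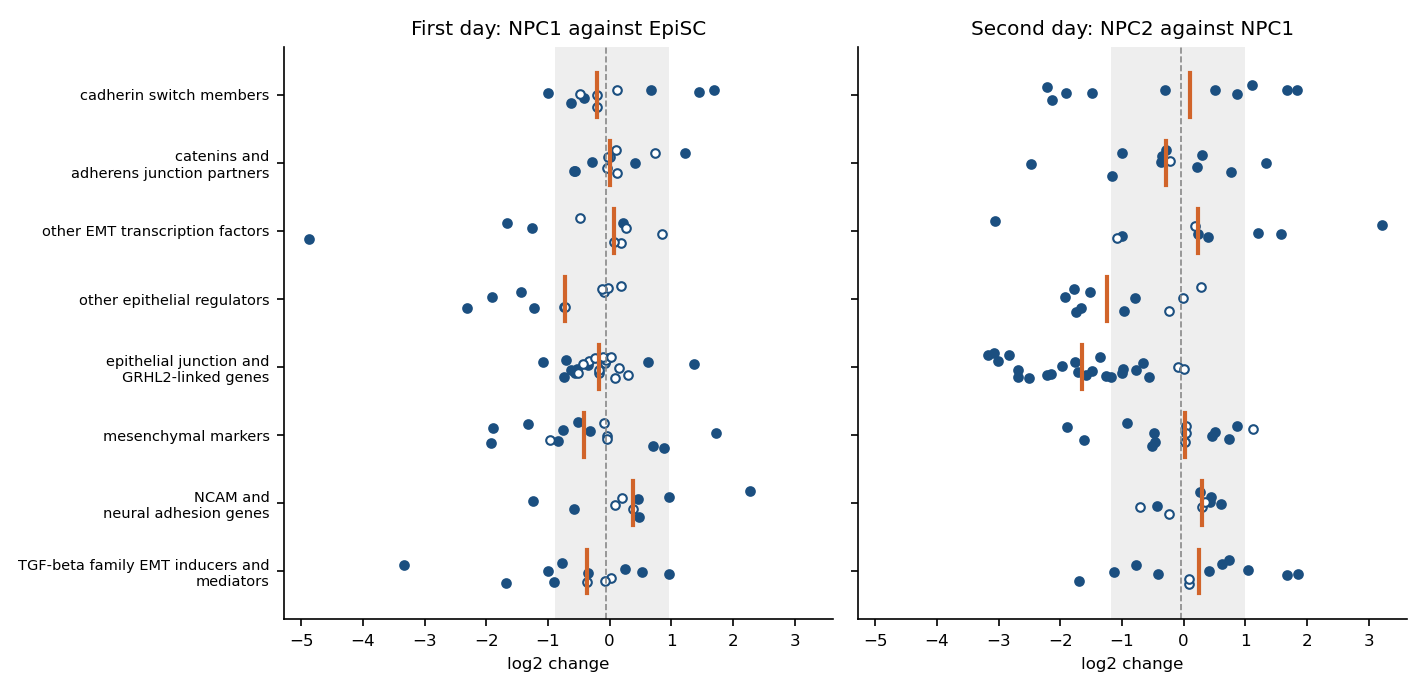
Log2 change of each tested gene in the members and 7 related lists on the first day (left) and second day (right); filled points passed the test, orange bars are list medians, the grey band spans the 5th to 95th percentile of 14768 genes and the dashed line is their median. The 24 epithelial junction genes have a median of -0.17 on the first day and -1.65 on the second.

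Other transcription factors of epithelial-mesenchymal transition (EMT) moved both ways: of 9 tested, 4 rose and 4 fell over both days, against 26.4% and 38.1% of all genes. Snai1, the closest relative of Snai2, rose 2.77-fold (log2 change 1.47 ± 0.11, adjusted p = 0.000549). Tcf4, an E-protein, rose 1.49-fold (log2 change 0.58), and its other tested probe had a log2 change of 1.14 (adjusted p = 0.000971). Prrx1, a mesenchymal homeobox gene, was not well above background in EpiSC cultures and was at least 4.99-fold higher in NPC2 cultures. Its log2 change ran from 0.84 to 4.61 over the alternatives. The other tested Prrx1 probe had a log2 change of 2.65 (adjusted p = 0.000184). Gsc, an organizer gene, fell 9.78-fold and Twist2 2.81-fold, and with normexp their log2 changes shrank to -2.08 and -0.97. Snai3 fell too, with 12.5 and 9.38 in NPC2 cultures, against 203 and 211 in EpiSC cultures; 1 of the 2 NPC2 arrays was well above background, and its log2 change was -4.32 here and -2.13 with normexp. Only 2 of the 4 falls could be tested when probes had to stand above background on all 6 arrays.

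Of 14 mesenchymal markers 2 rose and 9 fell over both days (26.4% and 38.1% of all genes), with a median log2 change of -0.63 against -0.10 for all genes. Acta2, smooth muscle actin, rose 6.01-fold and Mmp2, a matrix metalloproteinase, 3.06-fold. S100a4 fell 9.32-fold, Tgfbi 2.68-fold, and Tnc fell on both its tested probes. Tnc probe A_52_P355169 was not well above background in NPC2 cultures and was at least 4.02-fold lower there. Probe A_55_P2421597 had a log2 change of -1.46 (adjusted p = 0.0132). The gene's log2 change ran from -2.54 to -0.50 over the alternatives. Vim, which encodes vimentin, was picked out after its values were seen and fell 2.67-fold (log2 change -1.42, adjusted p = 9.68e-05).

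Among 11 tested catenins and adherens junction partners 4 rose and 5 fell over both days, shares near the 26.4% and 38.1% of all genes. Ctnna2, the alpha-catenin of neural tissue, had 229 and 226 in NPC2 cultures, against 33.9 and 40.8 in EpiSC cultures (5.85-fold higher, adjusted p = 0.000103). Ctnnd2, the delta-catenin of neural tissue, rose 2.27-fold and Ctnnb1, beta-catenin, 1.33-fold. Ctnna1, the alpha-catenin of epithelia, had 19700 and 19100 in NPC2 cultures, against 33900 and 36700 in EpiSC cultures (1.90-fold lower, adjusted p = 0.000443). The other 2 named falls were Nectin2, an immunoglobulin-family adhesion molecule of adherens junctions, at 2.72-fold, and Vcl, which encodes vinculin, at 1.86-fold.

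Of 12 genes of NCAM and neural adhesion 9 were tested, of which 5 rose and 3 fell over both days (26.4% and 38.1% of all genes). St8sia2 and St8sia4 encode the enzymes that attach polysialic acid to NCAM. St8sia2 had 54.1 and 55.9 in NPC2 cultures and was not well above background in EpiSC cultures, so it was at least 5.68-fold higher. In the limma fit, on signals as read, its log2 change was 2.89 (adjusted p = 0.000129), and 0.79 to 3.11 over the alternatives. St8sia4 had 120 and 103 in NPC2 cultures, against 187 and 183 in EpiSC cultures, and fell 1.75-fold (adjusted p = 0.00153). Fgfr1, a receptor that NCAM can engage, rose 1.89-fold and Nfasc, neurofascin, 1.85-fold. Nrcam fell 1.92-fold and L1cam 1.28-fold. The L1cam call was lost without either EpiSC or either NPC2 array (log2 changes -0.39 to -0.32). It was also lost with normexp and in the value table (adjusted p = 0.143 and 0.301). The same held without the filter on dim probes and with an intensity trend (adjusted p = 0.0701 and 0.0822).

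Of 12 genes of TGF-beta family signalling, some of which drive EMT in many tissues, 5 rose and 6 fell over both days, against 26.4% and 38.1% of all genes. Bmp7 rose 6.22-fold (log2 change 2.64 ± 0.065, adjusted p = 4.44e-05), Bmp4 2.78-fold and Smad3 1.93-fold. Nodal, which holds EpiSCs in the epiblast state, fell 17.1-fold (log2 change -4.10 ± 0.11, adjusted p = 4.9e-05), Tgfb1 10.4-fold and Tgfbr2 2.51-fold.

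Markers of other cell types moved beside the members; over both days 26.4% of all genes rose and 38.1% fell. The summed signal of 7 neural crest markers was 2300 to 2389 in NPC2 cultures, against 1099 to 1114 in EpiSC cultures, with 5 of 6 tested rising, among them Pax3, Pax7 and Sox9, and Foxd3 falling; Tfap2b was at background on every array. The sum of 8 fibroblast or feeder markers was 7233 to 7275 in NPC2 cultures, against 3249 to 3368 in EpiSC cultures. Of 7 tested 5 rose and 1, Col5a1, fell, while Lum was at background on every array. Surface ectoderm markers summed to 2810 to 2856 in NPC2 cultures, against 2110 to 2218 in EpiSC cultures. Of the 7, 2 rose, a share near that of all genes, and 1, Gata3, fell. Most of that sum was Trp63, with 2480 and 2450 in NPC2 cultures, against 1970 and 1860 in EpiSC cultures (adjusted p = 0.0665). Whether cells of these types were present, and their part in the rise of Cdh2, Zeb1 and Zeb2, was not tested. Endoderm markers summed to 3330 to 3374 in EpiSC, 200.2 to 244.8 in NPC1 and 629.9 to 668.4 in NPC2 cultures. Of 5 tested, 5 fell over both days. Mesoderm markers summed to 5498 to 5667 in EpiSC, 4247 to 4284 in NPC1 and 4020 to 4611 in NPC2 cultures. Of 5 tested, 3 fell and 1 rose over both days. Most of the mesoderm sum was Kdr, with 4420 and 3820 in NPC2 cultures, against 4050 and 3980 in EpiSC cultures (adjusted p = 0.794). T, among those that fell, had 1490 and 1390 in EpiSC, 79.2 and 86 in NPC1 and 62.7 and 66.5 in NPC2 cultures. The part of endoderm and mesoderm cells in the fall of the epithelial genes was not tested either. Of 6 neural plate markers 5 rose and 1, Nes, fell over both days. Their sum was 9595 to 9749 in NPC2 cultures, against 12240 to 12590 in EpiSC cultures. Nes made up most of the EpiSC sum, with 10900 and 11300, against 2880 and 2790 in NPC2 cultures.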

How the data were processed

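Total RNA of 6 cultures was labelled with Cy3 and hybridised to 6 one-colour Agilent arrays of design 028005 on 1 slide. Per the file headers, Feature Extraction 10.10.1.1 (protocol GE1_1010_Sep10) gave the deposited processed intensity, which has the background subtracted and a within-array trend removed and is not scaled between arrays. Each array has 59305 non-control spots, 58.2% to 61.1% of them well above background and 0 saturated. The authors' deposited value table is that intensity times 1 constant per array, 2.10 to 2.42, with its basis not given in the sources used here.

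Control and outlier spots were left out, spots of a probe averaged, and probes named through RefSeq accessions with the GRCm38.p6 gene table (26738 of 28372 matched 1 symbol, 0 several). Log2 values minus the array's 75th percentile were fitted in limma 3.58.1 (R 4.3.3; lmFit, eBayes, two-sided, all 6 arrays, 3 residual and 1.7 prior degrees of freedom). Errors beside log2 changes are moderated standard errors. Folds given as at least raise readings not well above background to the lowest signal that is so on the same array. These bounds hold for the main processing only and carry no test. The script was tested on simulated data. Precision is limited by 2 arrays per group.

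Members and lists were chosen with earlier results of these data known. Named in the text are all members, the 3 called genes per list and direction with the largest 2-day change, the 4 genes most like Cdh1 and Cdh2, and Pou5f1, Sox1, Actb and Gapdh. The marker lists are given as sums and counts, so most of their genes so chosen, and 1 other gene, have no values here. Alternatives covered background correction, scaling, the value table, the filter, probe or gene units, the samples fitted, moderation, a replicate block and leaving out each array.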

Additional observations from a re-analysis of the deposited data

Results flagged for a closer look

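For 7 members the second day's log2 change differed from the first day's in the limma fit. The difference, second day minus first day, was -2.01 ± 0.11 for Cdh1 (adjusted p = 0.00207), -1.93 ± 0.19 for Esrp1 (adjusted p = 0.00725) and -1.49 ± 0.15 for Epcam (adjusted p = 0.00723), which all fell mainly on the second day. It was 1.72 ± 0.098 for Cdh2 (adjusted p = 0.0023), which rose mainly on the second day. For Ncam1 it was -0.95 ± 0.13 (adjusted p = 0.0136), since most of its rise came on the first day. Zeb1 (0.43 ± 0.094, adjusted p = 0.0465) and Snai2 (1.35 ± 0.29, adjusted p = 0.0444) passed narrowly. The Zeb1 call ended without any 1 of the 6 arrays (adjusted p = 0.0972 to 0.146). The Snai2 call ended without any 1 array other than EpiSC culture A (adjusted p = 0.0733 to 0.161). The Ncam1 call ended without NPC1 culture A or NPC2 culture B (differences of -0.82 and -0.94), and that of Esrp1 without NPC1 culture A (-1.805). Without the filter on dim probes the calls of Ncam1, Zeb1 and Snai2 ended too (adjusted p = 0.0531, 0.16 and 0.116). Those of Zeb1 and Snai2 also ended with the value table and with the replicate block. The calls of Cdh1, Cdh2 and Epcam held in every alternative run for that difference.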

How the results depend on the processing

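Over 17 alternatives the 2-day calls of all 9 members that passed held, with Cdh1 between -2.51 and -2.20 and Cdh2 between 1.87 and 2.18 on the log2 scale. Of 961 alternative values of members, 859 kept direction and call, 75 lost the call, 18 gained one and 9 turned direction. The 9 were uncalled values. The second day's change of the dimmer Ncam1 probe became -0.0044 with normexp and ran from -0.040 to 0.21 over the fits without 1 array. The difference between days of Zeb2 became 0.28 with normexp, 0.066 with quantile normalization, 0.10 with median scaling, and 0.34 with the mean of its probes, and ran from -0.13 to 0.10 without 1 array (above 0 without NPC2 replicate A, 0.0043, or NPC1 replicate B). That of its dim probe ran from -0.24, without NPC1 replicate A, to 1.63. On the first day 5 members fell with normexp, median scaling or an intensity trend in eBayes, when Cdh1 and Snai2 passed too; Cdh2 passed as the mean of its probes, in the value table and under quantile normalization (adjusted p = 0.0244, 0.0307 and 0.037).

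Without the filter on dim probes 3699, 3864 and 1297 genes passed on the first day, on the second day and for the difference between days, against 6216, 5916 and 3017; with an intensity trend 4942 passed for that difference. Leaving out 1 array gave 3158 to 5039, 3552 to 4802 and 1092 to 1751 genes, 2 to 3 members that fell on the first day, and 1 to 2 members higher and 2 to 4 lower for the difference between days. Members higher for that difference numbered 1 with the value table, without the filter and with the replicate block. The letters A and B are not said to pair cultures across groups, and deviations by letter were nearly uncorrelated between groups (0.032, -0.0015 and -0.050). With the letters as a replicate block 5249, 9015, 4990 and 2062 genes passed, and Grhl3 lost its second-day call (adjusted p = 0.0563). The cause of these shifts was not tested. Of called genes, 57.2%, 59.1% and 55.8% fell on the first day, over both days and on the second day, against 37.3%, 38.6% and 41.1% in the value table, whose constants move the median log2 change of all probes by 0.12 and 0.22 in the first 2 of these comparisons; median scaling gave 70.3% on the first day and 43.1% for the difference between days, against 55.7%, and moved the median of that difference by 0.12. A named list gene kept its 2-day direction in all 1040 alternative values and lost its call in 17, all of Cldn3 and L1cam. All arrays lie on 1 slide, so a slide block could not be fitted.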
